A study of Homo sapiens with 4 samples.

Results

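Expression of 10 cancer-testis antigen genes outside the MAGE family was followed in A549 cells, an established human lung adenocarcinoma line, after a CRISPR guide against UHRF1. The 10 genes are CTAG2, CTAG1B, PAGE1, PAGE2, PAGE5, SSX1, SSX2, CT83, PRAME and PRSS21, taken by symbol from GENCODE 29, and all 10 were found among the 58735 genes of the deposited RNA-seq count table. The control group (2 libraries) carried a non-targeting guide and the UHRF1 KO group (2 libraries) a guide against UHRF1. In both groups the guide came in the lentiCRISPRv2-hygro lentivirus and the cells were selected with hygromycin. The sources used here do not say if the cells were pools or clones, or how long after infection they were taken. The labels do not name separate cultures for the 2 libraries of a group, so the p-values rest on a spread between libraries that may be only technical.

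Cancer-testis antigens are made in male germ cells, are silent in most adult tissues, and reappear in many tumours, where their peptides can be shown to T cells. Silence of many of them in body cells depends on methylation of CpG sites near their start. UHRF1 binds hemimethylated CpG sites behind the replication fork and recruits the methyltransferase DNMT1, which copies the methyl mark to the new strand.

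Library totals ran from 18604598 to 23977168 counts, and 24504 to 29341 genes had at least 1 count. Levels are CPM, counts relative to library size after TMM scaling, and 3 counts, taken as the limit that a count of 0 allows, correspond to 0.121 to 0.168 CPM in these libraries. Because no molecular identifiers mark the reads, every interval and floor covers only counting error. UHRF1 itself had 1740 and 1834 counts in control and 811 and 1000 in UHRF1 KO, with log2 fold change -1.31 (SE 0.055, edgeR adjusted p = 3.92e-20). A Cas9 cut can leave the transcript in place, so this RNA level is no measure of the protein. Of 9 epithelial and A549 genes, all were detected in every library, 8 fell and EPCAM rose. Over all genes tested, 30.1% fell and 32.0% rose. Of 14 genes of other cell types 6 could be tested and all 6 rose. DES, PDGFRB and PECAM1 passed the filter on low counts only by their UHRF1 KO counts, so they had to differ. Summed levels of the 14 genes were 7.57 and 8.36 CPM in control and 58.2 and 61.0 CPM in UHRF1 KO. In UHRF1 KO the mean of PECAM1 was 29.9 CPM and that of COL1A1 15.6 CPM. The T cell gene CD3E was at 0 in all 4 libraries. Of the endothelial genes, CDH5 had 3 counts in UHRF1 KO 1 and 0 in the other 3 libraries. VWF went from 1 and 0 counts to 11 and 11, and PECAM1 from 7 and 2 counts to 607 and 759. The leukocyte gene PTPRC went from 0 and 0 counts to 10 and 20. HBB went from 1 and 2 counts to 0 and 0, and CD79A from 6 and 5 to 7 and 4. The part of these genes in the results below was not tested.

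The promoters come first, because UHRF1 binds at CpG sites. RefSeq's table (build GRCh38.p14) held promoter windows for 8 of the 10 genes, each running from 250 bases before to 50 bases after a start; CTAG2 and CTAG1B are named only. The 6 windows shown cover PAGE2 and PAGE5, which resemble each other, and SSX1 and SSX2, which differ in CpG content. The others are PRAME, which was already on in control, and PRSS21, which held the most CpG sites. Sequences run 5′ to 3′ on the gene's strand, and capitals mark CpG dinucleotides.
PAGE2, chrX:55088768-55089067, plus strand: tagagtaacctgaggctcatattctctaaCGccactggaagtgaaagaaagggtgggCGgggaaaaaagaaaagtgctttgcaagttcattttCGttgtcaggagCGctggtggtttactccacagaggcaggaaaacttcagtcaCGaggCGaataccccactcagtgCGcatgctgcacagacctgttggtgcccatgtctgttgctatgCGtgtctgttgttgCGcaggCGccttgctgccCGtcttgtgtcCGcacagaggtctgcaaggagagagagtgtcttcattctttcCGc
PAGE5, chrX:55220096-55220395, plus strand: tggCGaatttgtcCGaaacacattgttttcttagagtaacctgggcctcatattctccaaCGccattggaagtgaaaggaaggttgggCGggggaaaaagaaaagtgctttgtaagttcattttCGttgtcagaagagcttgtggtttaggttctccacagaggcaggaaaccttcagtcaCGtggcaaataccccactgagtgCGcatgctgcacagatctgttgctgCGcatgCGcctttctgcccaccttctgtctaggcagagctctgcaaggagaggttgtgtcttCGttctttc
SSX1, chrX:48255142-48255441, plus strand: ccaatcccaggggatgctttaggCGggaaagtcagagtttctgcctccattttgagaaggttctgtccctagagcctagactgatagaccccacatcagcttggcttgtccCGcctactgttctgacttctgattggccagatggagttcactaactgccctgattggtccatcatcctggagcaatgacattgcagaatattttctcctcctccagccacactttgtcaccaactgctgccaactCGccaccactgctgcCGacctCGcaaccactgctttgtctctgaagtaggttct
SSX2, chrX:52707129-52707428, minus strand: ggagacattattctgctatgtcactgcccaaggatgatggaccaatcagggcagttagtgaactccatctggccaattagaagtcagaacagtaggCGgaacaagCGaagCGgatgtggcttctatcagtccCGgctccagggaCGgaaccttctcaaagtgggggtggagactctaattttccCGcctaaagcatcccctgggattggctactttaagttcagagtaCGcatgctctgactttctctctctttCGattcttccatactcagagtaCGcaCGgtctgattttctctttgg
PRAME, most upstream start, chr22:22559216-22559515, minus strand: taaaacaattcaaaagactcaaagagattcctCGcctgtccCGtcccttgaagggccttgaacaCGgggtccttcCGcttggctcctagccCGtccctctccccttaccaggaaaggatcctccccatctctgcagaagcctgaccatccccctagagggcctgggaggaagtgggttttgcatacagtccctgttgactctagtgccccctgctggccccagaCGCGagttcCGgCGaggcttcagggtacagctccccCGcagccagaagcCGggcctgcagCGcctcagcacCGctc
PRSS21, chr16:2816987-2817286, plus strand: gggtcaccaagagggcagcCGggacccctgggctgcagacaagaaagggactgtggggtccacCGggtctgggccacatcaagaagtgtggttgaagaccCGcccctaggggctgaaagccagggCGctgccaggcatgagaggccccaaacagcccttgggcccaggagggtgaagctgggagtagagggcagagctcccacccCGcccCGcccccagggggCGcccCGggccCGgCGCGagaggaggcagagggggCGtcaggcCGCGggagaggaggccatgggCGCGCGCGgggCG

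These promoters were of low to middling CpG content. Over 35116 RefSeq promoter windows of 300 bases the quartiles were 4 and 28 CpG sites and the median was 14. SSX1 held 5 sites and PRSS21 held 19. In between, PAGE5 held 10, PAGE1 and PAGE2 held 13 each and CT83 held 14. SSX2 has 2 starts in the table, with 8 and 10 sites, and PRAME has 3, with 4, 12 and 13. All members' windows thus lay at or above the lower quartile and below the upper one. For PRAME, the gene that was on in control, the starts with 12 and 13 sites lay within the range of the other members. Its start with 4 sites held the fewest of all. Which of these starts was in use was not tested. The order differed by the ratio of observed to expected CpG sites, which allows for C and G content. CT83 at 0.691 and PAGE2 at 0.640 were above the median ratio of 0.579. PRSS21, at 72.3% GC, was below it at 0.497, as were the windows of the other members.

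**Figure D1:**
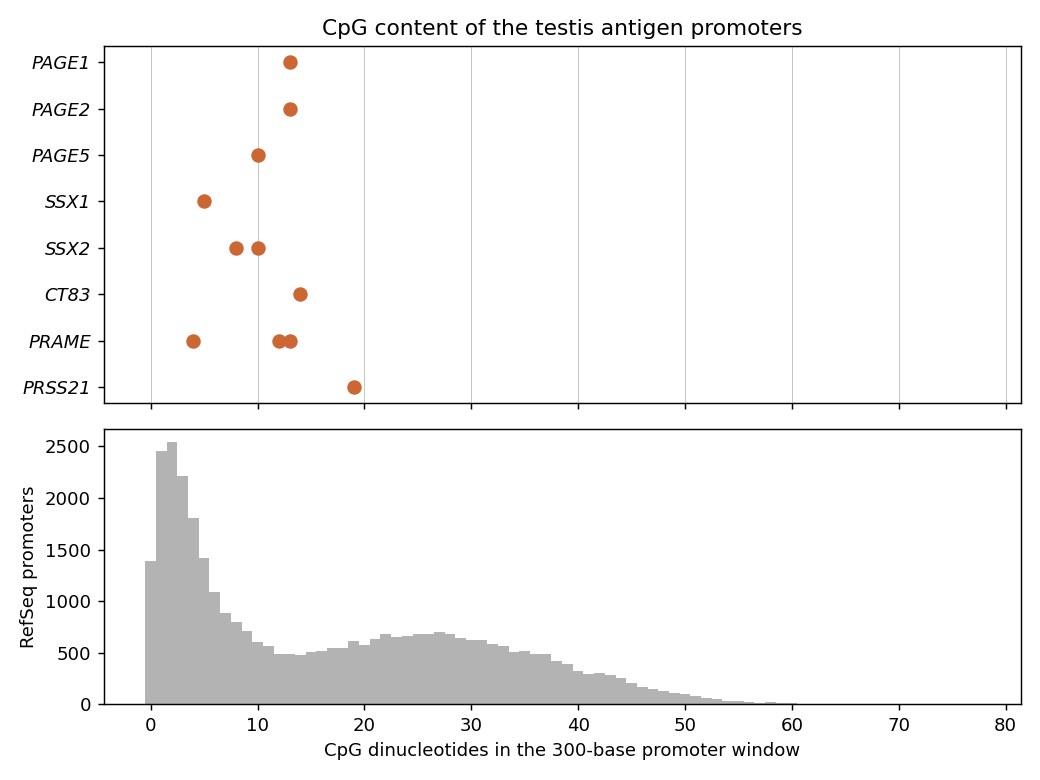
CpG dinucleotides in the 300-base RefSeq promoter window of each start of 8 testis antigen genes (points, upper panel), above the same count for 35116 promoters (bars, lower panel). The members lie between 4 and 19 sites, in the low and middle part of the distribution.

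Short motifs were shared by some of the windows. The motif searches were chosen after the sequences were seen, on both strands, and a match is only a match of letters. GCGCATGC, the core of the site bound by the methylation-sensitive factor NRF1, was found 1 time in PAGE2 and 3 times in PAGE5, where matches on opposite strands overlap, in no other member window, PAGE1 included, and in 3.05% of all windows. CCAAT, the box bound by NF-Y, was found 3 times in SSX1 and 3 times in either SSX2 window, 2 times in CT83, 1 time each in PAGE5 and at the middle PRAME start, and in 34.6% of all windows. GGGCGG, the box bound by SP1, was found 3 times in PRSS21, 2 times at the middle PRAME start, 1 time each in PAGE2 and PAGE5, and in 45.0% of all windows. CCGGAA, the core of ETS sites, was found 1 time each in CT83 and at the most upstream PRAME start, and in 17.2% of all windows. PAGE2 and PAGE5 were identical at 89.1% of 265 aligned bases, and PAGE2 and its copy PAGE2B at 93.6% of 279. SSX1 and SSX2 were identical at 69.9% of 259 aligned bases, and a window of SSX2 equalled that of its copy SSX2B over all 300 bases.

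In expression, 6 of the genes rose from 0 to 2 counts in a control library to between 68 and 622 in a UHRF1 KO library, PRAME rose slightly from an already high level, and SSX2, CT83 and CTAG1B gave no call. Of the 10 genes, 8 passed the filter on low counts and were tested, and edgeR called 7 higher and 0 lower at an adjusted p under 0.05 (0 lower also at an unadjusted p under 0.05, in DESeq2 and in limma-voom). Over all 17030 genes tested, 32.0% were called higher and 30.1% lower, and 15.4% were higher and at least 2-fold. PRAME had counts enough in both groups to be called either way. The others got past the filter only by their UHRF1 KO counts, so they had to differ, as did 98.9% of all 284 tested genes with 0 counts in both controls. The share of higher genes among all calls was 51.5%, against 63.6% with libraries scaled by their totals alone and 30.1% after removal of trends with GC content and length and recentring of the libraries. These counts are of bulk RNA, in which more cells that express a gene and more RNA per cell cannot be told apart.

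**Figure D2:**
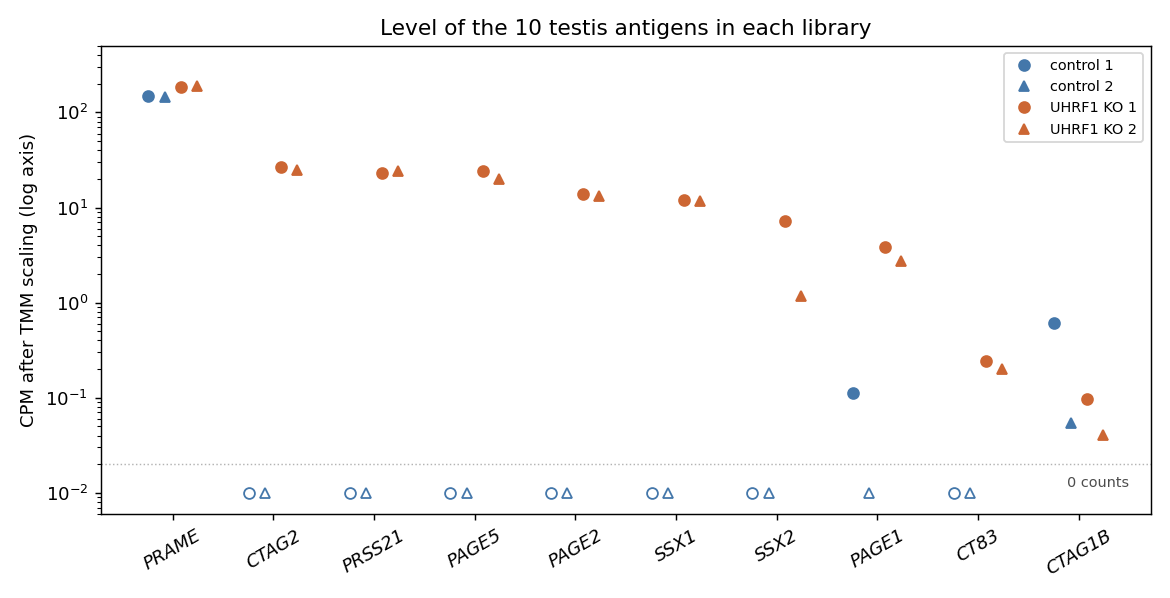
CPM after TMM scaling (log axis) of the 10 genes in each of the 4 libraries, ordered by mean level in UHRF1 KO. Open symbols under the dotted line are libraries with 0 counts. The libraries of a group lie apart for SSX2 in UHRF1 KO, for CTAG1B in both groups and for PAGE1 in control, where 1 library is at 0.

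CTAG2 encodes LAGE-1, a close relative of NY-ESO-1 that T cells recognise in several tumours. It lies on GRCh38 chromosome X, positions 154651972 to 154653579, minus strand (ENSG00000126890), and had 0 counts in both controls. UHRF1 KO gave 552 and 622 counts, or 26.6 and 25.02 CPM. The groups did not overlap, and with a mean of 25.8 ± 1.13 CPM (SD, n = 2) the level was at least 312-fold higher, set against a floor of 3 counts over both controls together (edgeR adjusted p = 2.44e-23).

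CTAG1B, the gene of NY-ESO-1 itself, did not follow. It lies 34.3 kb away from CTAG2 between gene midpoints, on chromosome X at 154617609 to 154619282 (ENSG00000184033). It had 11 and 1 counts in control and 2 and 1 in UHRF1 KO, so the groups overlapped, and 11 of the 12 control counts came from control replicate 1. The filter left it untested. From 12 control counts and 3 UHRF1 KO counts the ratio of UHRF1 KO to control was 0.199, with an exact 95% Poisson interval of 0.0361 to 0.739 that ignores the spread between libraries. Its twin CTAG1A had 1 and 1 counts in control and 3 and 7 in UHRF1 KO, so the sums over both copies were 12, 2, 5 and 8. These numbers say little about NY-ESO-1 transcripts, because 92.1% of the 31-base words of CTAG1B transcripts stand also in CTAG1A and only 7.92% are found in no other gene. Of CTAG2 words 50.9% are shared with CTAG1B and 49.1% are its own. The sources used here do not say how reads with several matches were counted.

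The PAGE genes encode small acidic proteins related to the GAGE family, named from prostate and testis. PAGE5 (ENSG00000158639, chromosome X, 55220355 to 55224108, plus strand) went from 0 counts in both controls to 497 and 492, or 23.96 and 19.8 CPM. That is a mean of 21.9 ± 2.95 CPM, at least 263-fold higher (edgeR adjusted p = 1.18e-21). PAGE2 (ENSG00000234068, chromosome X, 55089008 to 55092842, plus strand) went from 0 in both controls to 289 and 325 counts, or 13.9 and 13.1 CPM. It was at least 163-fold higher (edgeR adjusted p = 1.37e-19). In both genes every UHRF1 KO library was far above every control library.

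PAGE1, on the short arm of chromosome X at 49687450 to 49695993 (ENSG00000068985), had the lowest level per exon length of the 3. It had 2 and 0 counts in control and 79 and 68 in UHRF1 KO, or 3.81 and 2.74 CPM. The count ratio was 58.6, with an exact 95% Poisson interval of 15.9 to 488.8, and the edgeR adjusted p was 1.43e-10. The fitted log2 fold change of 5.74 rests on the 2 counts of control replicate 1: it was 9.11 without that library, where control is at 0, and 4.76 without control replicate 2. Nearly all of its sequence is its own, with 98.3% of 31-base words found in no other gene, against 52.7% for PAGE2 and 74.3% for PAGE5. The copy PAGE2B shares 47.3% of the words of PAGE2 and rose too, from 0 in both controls to 176 and 192 counts, at least 97.9-fold (edgeR adjusted p = 1.34e-16). PAGE2 and PAGE2B together had 465 and 517 counts. PAGE3, with 2 and 5 counts in UHRF1 KO, and PAGE4, with 0 and 1, stayed at or near 0.

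SSX proteins are nuclear repressors of the testis, known from the SS18-SSX fusions of synovial sarcoma. SSX1 (ENSG00000126752, chromosome X, 48255317 to 48267444, plus strand) had 0 counts in both controls and 250 and 293 in UHRF1 KO. At 12.1 and 11.8 CPM the UHRF1 KO libraries lay close together, and the level was at least 144-fold higher (edgeR adjusted p = 6.86e-19). Its relative SSX3 also rose, from 0 in both controls to 165 and 192 counts, at least 94.95-fold higher (edgeR adjusted p = 1.74e-16). The other SSX genes had few counts: SSX2B had 8 and 14 in UHRF1 KO, SSX5 had 6 and 2, SSX4B had 4 and 1, SSX4 had 1 and 0 and SSX7 had 0 and 1, all with 0 in control.

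SSX2 differed between the UHRF1 KO libraries. This gene (ENSG00000241476, chromosome X, 52696896 to 52707189, minus strand) had 0 counts in both controls, 149 in UHRF1 KO 1 and 29 in UHRF1 KO 2, or 7.18 and 1.17 CPM. Both UHRF1 KO libraries were above both controls, and the pooled level was 47.3 times the floor of 3 counts over both controls. Still, edgeR did not call SSX2 (log2 fold change 9.38, SE 5.00, adjusted p = 0.340). DESeq2 called it (adjusted p = 0.00339), and edgeR called it without UHRF1_KO replicate 1 (adjusted p = 9.85e-07) and without UHRF1_KO replicate 2 (adjusted p = 3.96e-42), where the lone library is assumed to vary like the others. Its adjusted p over all 15 alternative fits ran from 3.96e-42 to 0.561.

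The gap between the UHRF1 KO libraries was 6.16-fold, with an exact 95% binomial interval of 4.12 to 9.51. Among 13155 genes with at least 100 counts over both UHRF1 KO libraries the median gap was 1.05-fold, 13 genes were over 2-fold apart, and the 2 genes over 6-fold apart were SSX2 and the pseudogene NSFP1, which was named after its values were seen. For SSX1 the gap was 1.02-fold and for SSX3 1.03-fold. No 31-base word of SSX2 transcripts is its own, since every one stands also in SSX2B. Adding SSX2B gave 157 and 43 counts, so the gap stood in the sum of both copies too. GAGE2A, another gene of a repeated family, was 2.14-fold apart in the other direction, with 108 and 277 counts.

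**Figure D3:**
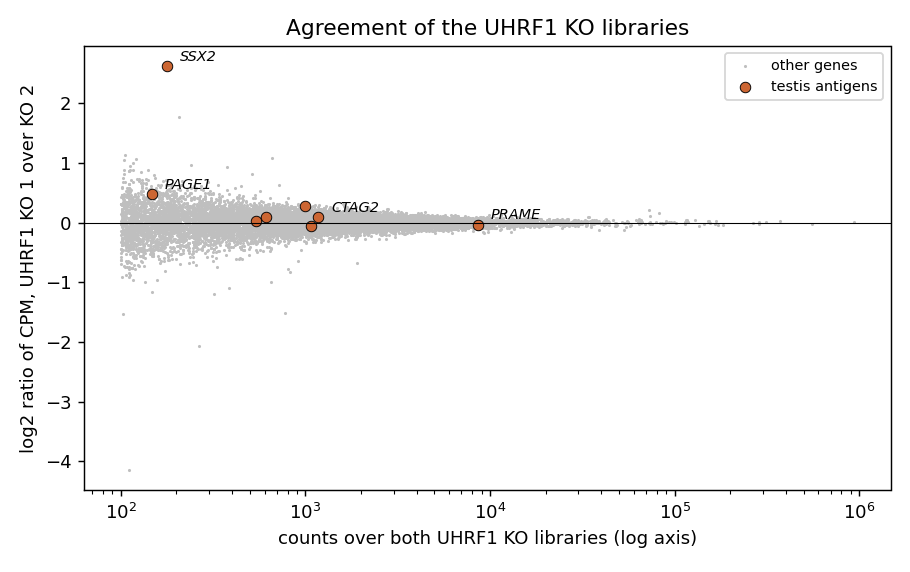
Log2 ratio of CPM in UHRF1 KO 1 over UHRF1 KO 2, against the summed counts (log axis), for tested genes with at least 100 counts over both libraries. Testis antigens are large points; SSX2 stands 6.16-fold apart, PAGE1 1.39-fold and PAGE5 1.21-fold, while CTAG2, PAGE2, SSX1, PRAME and PRSS21 lie within 1.07-fold.

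CT83, which encodes the lung cancer antigen KK-LC-1, was barely detected. The gene (ENSG00000204019, chromosome X, 116461682 to 116463003, minus strand) had 0 counts in both controls and 5 in each UHRF1 KO library, or 0.241 and 0.201 CPM. The pooled UHRF1 KO level was 0.219 CPM (exact 95% Poisson interval 0.105 to 0.403). That level was 2.66 times the floor of 3 counts over both controls together (0.0825 CPM), a fold that leaves out its own counting error. It was too low to pass the filter, and with no filter its edgeR adjusted p was 0.0425. CT83 lies tail to tail with SLC6A14, an amino acid transporter gene on the plus strand whose annotated end is 224 bases from that of CT83. SLC6A14 rose from 0 and 1 counts to 49 and 44 (edgeR adjusted p = 7.64e-09). It passed the filter only by its UHRF1 KO counts, so it had to differ.

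PRAME is a leucine-rich repeat protein that serves as substrate receptor of a CUL2 ubiquitin ligase and represses retinoic acid receptor signalling. It differed from the others in being on before UHRF1 was targeted. The gene (ENSG00000185686, chromosome 22, 22547701 to 22559361, minus strand) had 2633 and 2708 counts in control, or 147.7 and 146.0 CPM. UHRF1 KO gave 3859 and 4730 counts, or 186.1 and 190.3 CPM, and the groups did not overlap. The change from 146.8 ± 1.20 to 188.2 ± 2.97 CPM (SD, n = 2) was 1.28-fold, or 0.36 on the log2 scale (SE 0.041, edgeR adjusted p = 4.04e-09). Its direction rests on the scaling: the log2 fold change ran from 0.27 to 0.47 in the other 14 alternative fits but was -0.03 (adjusted p = 0.511) once trends with GC content and length were removed and the libraries recentred, a setting that moved the median gene from 0.02 to -0.23.

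PRSS21 encodes testisin, a membrane-anchored serine protease of spermatocytes and sperm, and is the only other member off the X chromosome. On chromosome 16 at 2817180 to 2826304, plus strand (ENSG00000007038), it had 0 counts in both controls and 475 and 595 in UHRF1 KO. At 22.9 and 23.9 CPM the UHRF1 KO libraries differed by less than those of PAGE5, and the level was at least 285-fold higher (edgeR adjusted p = 8.00e-23). Reads of PRSS21 are hardly shared, with 98.8% of its 31-base words found in no other gene.

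**Figure D4:**
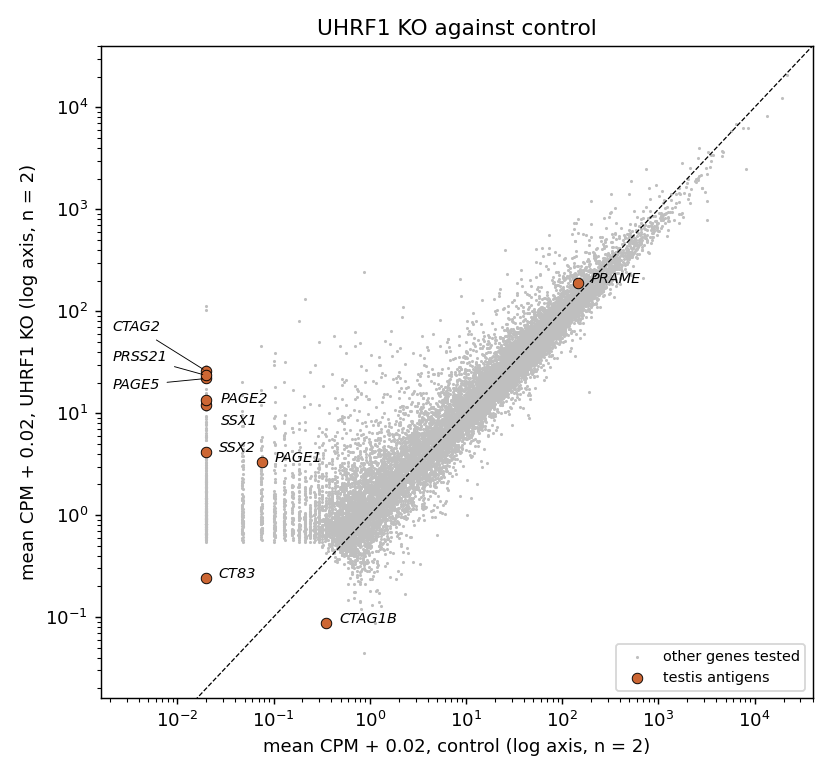
Mean CPM + 0.02 in UHRF1 KO against control (both log axes, n = 2 libraries a group) for the tested genes (grey) and the 10 testis antigens (large points, CTAG1B and CT83 included although untested). PRAME lies just above the diagonal, CTAG1B below it, and the 7 genes silent in control form a column at the left edge.

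Per length of exon, PRAME stayed the most abundant member in UHRF1 KO. Divided by exon length, the UHRF1 KO level was 49.8 ± 0.79 CPM per kb for PRAME, 29.4 ± 3.97 for PAGE5, 26.0 ± 1.14 for CTAG2 and 20.4 ± 0.92 for PAGE2 (SD, n = 2). PRSS21 followed with 11.9 ± 0.37 CPM per kb and SSX1 with 9.18 ± 0.15, then PAGE1 with 4.92 ± 1.14 and SSX2 with 2.72 ± 2.77. CT83 had 0.40 ± 0.052 CPM per kb and CTAG1B 0.068 ± 0.040. The ranges of the libraries overlapped for the neighbours PAGE5 and CTAG2 and for PAGE1 and SSX2, and not for the other neighbours in this order. Before division by length, the 9 members other than PRAME summed to 0.729 and 0.0539 CPM in control and to 110.8 and 97.8 CPM in UHRF1 KO. PRAME made up 99.5% and 99.96% of the members' summed CPM in control and 62.7% and 66.1% in UHRF1 KO.

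Most protein-coding genes that were silent in control stayed low. Of 4135 protein-coding genes with 0 counts in both controls, 31 reached a mean of 5 CPM in UHRF1 KO, a threshold not corrected for length, and 5 of these were members: CTAG2, PRSS21, PAGE5, PAGE2 and SSX1. Chromosome X held 282 of the 4135 genes and 19 of the 31. On that chromosome, which carries 8 of the 10 members, 39.1% of 612 tested genes were called higher and 23.2% were higher and at least 2-fold, against 15.1% of the genes elsewhere.

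Around the members the change was uneven. Within 200 kb of any member, 57 other genes were tested, of which 26 were higher, 8 lower and 23 not called, beside 32.0% higher and 30.1% lower over all genes tested. Their median log2 fold change was 0.22, against 0.02 over all genes tested. Some of the 57 were at or near 0 in control, such as AC244107.1, GAB3, PAGE2B, GAGE1, SSX3 and SLC6A14. These passed the filter on low counts only by their UHRF1 KO counts and could not be called lower. The counts and the median are therefore partly set by the filter. The pseudogene AC244107.1, which starts 967 bases from CTAG2, rose from 0 counts in both controls to 11 and 15 (edgeR adjusted p = 7.00e-05). On the other side, 3697 bases away, IKBKGP1 had 23 and 12 counts in control and 27 and 29 in UHRF1 KO (log2 fold change 0.35, edgeR adjusted p = 0.445). DKC1, a gene of the telomerase and pseudouridine machinery within 200 kb of CTAG2, fell by 0.65 on the log2 scale (edgeR adjusted p = 6.22e-15).

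In the PAGE region the gene FAM104B lies between PAGE2 and PAGE5. Its mean fell from 13.8 ± 0.82 to 8.70 ± 1.18 CPM (SD, n = 2; log2 fold change -0.65, edgeR adjusted p = 2.72e-05), while PAGE2B, PAGE2 and PAGE5 around it went from 0 to 8.11, 13.5 and 21.9 CPM. Next to PRSS21, ZG16B rose from 9 and 10 counts to 26 and 28 (log2 fold change 1.17, edgeR adjusted p = 0.0171), and the protease gene PRSS22 rose from 2 and 5 counts to 48 and 56 (log2 fold change 3.53). PRSS41, 11878 bases before PRSS21, had 0 counts in control and 4 and 7 in UHRF1 KO. ZNF280A, the neighbour of PRAME, rose from 3.84 to 6.52 CPM (log2 fold change 0.77, edgeR adjusted p = 6.32e-04).

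**Figure D5:**
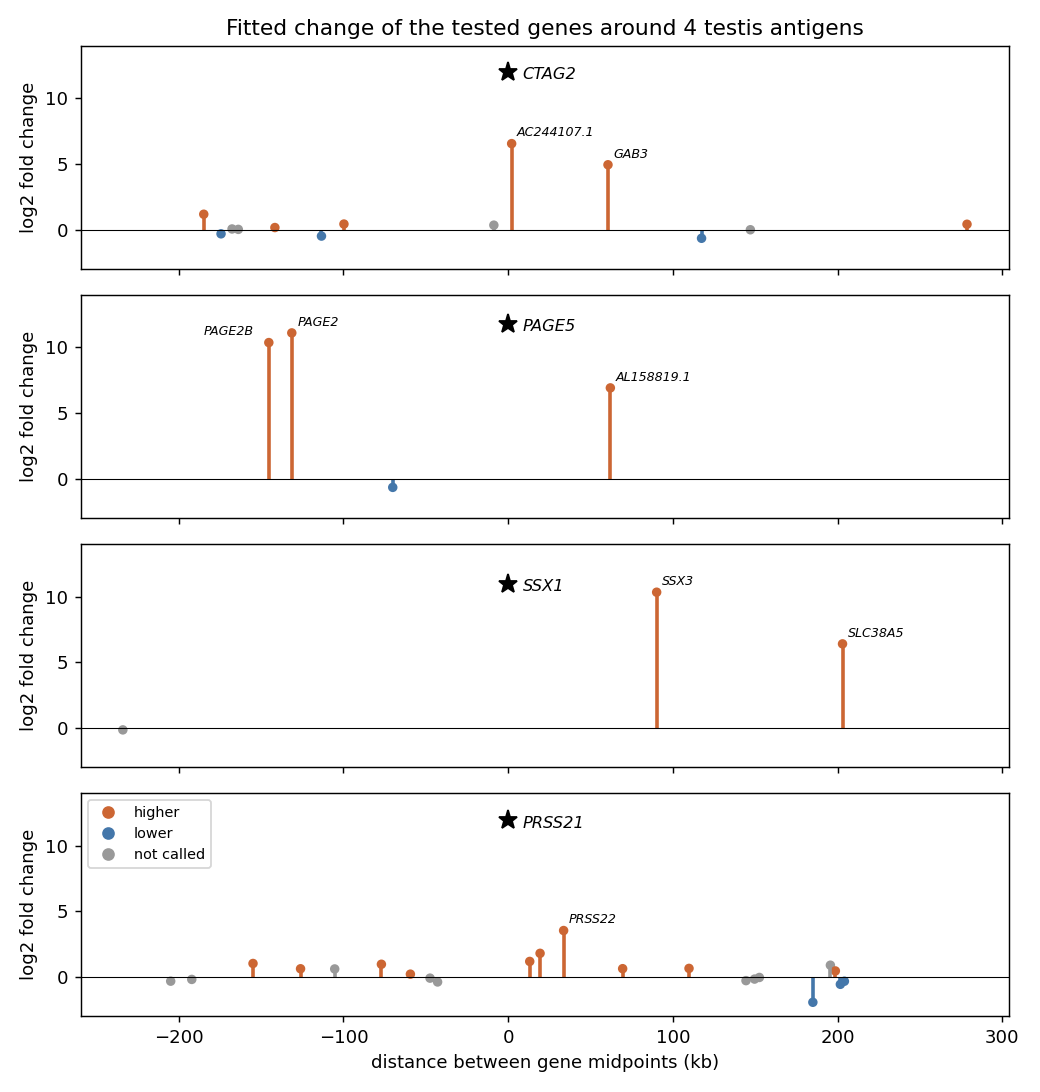
Fitted log2 fold change (UHRF1 KO against control) of the tested genes within 200 kb of CTAG2, PAGE5, SSX1 and PRSS21, against the distance between gene midpoints in kb. The 200 kb were measured between gene edges, so some midpoints lie farther off, such as F8 at 278.6 kb from CTAG2. The star is the named gene, and genes over 3 on the log2 scale are labelled. Fitted values of genes at 0 in control depend on the prior count. FAM104B is the blue point between PAGE2 and PAGE5.

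The wider families were mixed. Of 10 relatives of CTAG1B, PAGE and SSX genes, 9 had 0 counts in both controls. Of the 10, 2 could be tested, PAGE2B and SSX3, both higher. PAGE2B, SSX3, GAGE1 and GAGE2A were at 0 in both controls and passed the filter only by their UHRF1 KO counts. Of all 284 tested genes with 0 counts in both controls, 98.9% were called higher. Of 22 GAGE and XAGE genes, 18 were in the table and 3 were tested. GAGE1 rose from 0 in both controls to 135 and 175 counts, at least 82.5-fold (edgeR adjusted p = 1.20e-15). GAGE2A, at 108 and 277 counts from 0, was not called (edgeR adjusted p = 0.0512). XAGE1B had 8 and 31 counts in control and 11 and 15 in UHRF1 KO (edgeR adjusted p = 0.106). GAGE genes are near-identical copies, so the split of reads between them is uncertain. The 22 PRAME family genes of chromosome 1 gave hardly a read: 5 had any count, with at most 4 in a library and 0 in both controls, and none was tested. Among 11 serine protease relatives of PRSS21, 4 were tested, PRSS22 rose, and PRSS27, PRSS36 and PRSS53 were not called. Over all genes tested, 32.0% were called higher. PRSS22, with 2 and 5 counts in control, also passed the filter only by its UHRF1 KO counts.

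Genes tied to PRAME or its ligase were counted next. These 10 genes were the CUL2 ligase, NF-Y, the repressor partners and LRR1, another receptor of that ligase and not a partner of PRAME. Of the 10, 6 fell and 1 rose, where 30.1% of all genes tested fell and 32.0% rose. Their median log2 fold change was -0.39, against 0.02 over all genes tested. LRR1 fell by 0.94, the ring protein RBX1 by 0.74 and the adaptor ELOC by 0.42 on the log2 scale (edgeR adjusted p = 7.01e-10, 5.14e-11 and 5.50e-08). CUL2 was at -0.02 (edgeR adjusted p = 0.818), and the retinoic acid receptor RARA rose by 0.28 (edgeR adjusted p = 0.00173).

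Of 15 factors that silence or bind testis antigen promoters, 3 rose and 7 fell, UHRF1 among them, beside 32.0% and 30.1% of all genes tested. Their median log2 fold change was -0.14. CTCFL, a testis relative of CTCF that is itself a cancer-testis gene, rose from 0 and 2 counts to 114 and 133 (log2 fold change 6.47, SE 0.47, edgeR adjusted p = 8.27e-14). CTCFL passed the filter on low counts only by its UHRF1 KO counts, so it had to differ. CTCF fell by 0.64 on the log2 scale (edgeR adjusted p = 8.94e-13). DNMT3B rose by 1.34 and EHMT2, an H3K9 methyltransferase, by 0.17, while HELLS, a remodeller needed for DNA methylation, fell by 0.31 and HDAC2 by 0.27.

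The genes most like PRAME and CTAG2 across the 4 libraries were named by the distance between log2(CPM + 0.1) values, members left out. SLC38A10, PPIF and PTPN12 came nearest to PRAME, at distances of 0.036, 0.050 and 0.055, with UHRF1 KO means of 190.5, 186.8 and 188.6 CPM. For CTAG2 they were GTSF1, MAGEC2 and MAGEA1, at 0.168, 0.221 and 0.788. GTSF1, a piRNA pathway factor, had 495 and 596 counts in UHRF1 KO, and MAGEC2 had 625 and 681, both from 0 in control. MAGEA1 had 0 and 1 counts in control and 432 and 494 in UHRF1 KO. With 2 groups of 2 libraries, such a likeness holds little beyond the level in either group.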

How the data were processed

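RNA-seq of 2 control and 2 UHRF1 KO samples of A549 was deposited as whole-number read counts per Ensembl gene, not normalized; per the labels' protocols, the authors used a SMARTER mRNA-Seq kit. FastQC 0.10.1 and GRCh38 are named in the submitters' processing notes; for aligner, counting tool, annotation and strand, the sources used here name nothing. All 58735 identifiers matched GENCODE 29. Both controls share a short name in the labels, so the number in each title decided which column was whose. Genes were tested by edgeR 4.0.16 under R 4.3.3 (filterByExpr, TMM, glmQLFit robust, glmQLFTest, two-sided, Benjamini-Hochberg over 17030 genes, threshold 0.05), checked on simulated data. SE is the size of the log2 fold change divided by the root of F. Folds of genes at 0 in control are set against 3 counts over both controls. The pooled UHRF1 KO counts are taken as they stand, so "at least" covers the control side alone. A 31-base word was counted in the sense strand of GENCODE 29 transcripts. Exon length is the union of annotated exons. Alternatives were DESeq2 1.42.0, limma-voom 3.58.1, other scalings and filters, the replicate block and leaving out libraries; GC content and length trends were added after seeing the data. The genes named were the members, UHRF1, relatives of the members, neighbours, list genes with the smallest adjusted p and the nearest in pattern. Further list or window genes were named after their values were seen. The members and lists were chosen with earlier results of these data known.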

Additional observations from a re-analysis of the deposited data

How the results depend on the processing

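Under 17 alternatives edgeR, DESeq2 or limma-voom called 6 to 8 of the members higher and 0 lower, and 7 to 8 higher with any 1 library left out. Over all genes, asking for at least 2-fold left 2616 higher and 432 lower, against 5445 and 5118, and removing GC content and length trends with recentring gave 3543 and 8220; leaving out 1 library gave 4626 to 5137 higher and 4388 to 5037 lower. Of 136 values of 10 single genes (UHRF1, the 8 tested members and, set against its fit with no filter, CTAG1B) over up to 15 alternative fits, 131 kept their direction and call. The exceptions were PRAME, at -0.029 with trends removed and libraries recentred, and SSX2, which became called in 4 fits: DESeq2 (8.67 on the log2 scale), without either UHRF1 KO library (7.58 and 10.1) and with the replicate block. With the replicate number as a block, 5280 genes were higher and 4986 lower, 8 members were higher and 0 lower, and SSX2 stood at 9.40 (edgeR adjusted p = 9.22e-12). Same-numbered libraries share only a number: the deviations of the 2 pairs correlated at -0.01 over genes. CTAG1B, untested in the main analysis, was at -2.26 with no filter (edgeR adjusted p = 0.101) and -2.34 in DESeq2 (adjusted p = 0.312), and CT83 at 5.20 with no filter. Depth limits CT83 and CTAG1B, where differences rest on 10 and 15 counts over all libraries.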
